A study of Mus musculus with 16 samples.

Results

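The mitochondrial ribosomal protein genes were described in whole-pancreas RNA-seq of lean and obese mice. Members were the rows of the gene table whose symbol is Mrpl or Mrps followed by a number and at most one letter. The rule found 77 of 24411 genes, 48 with an Mrpl symbol and 29 with an Mrps symbol. The symbols stand for the large and small subunit, except for Mrps18a and Mrps30, which sit in the large subunit, and Mrps36, described below. All 77 passed the low-count filter, as did 13660 genes in all, so no member was lost to it.

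Pancreata came from 16 male mice of strain C57BL6/J aged 12 weeks. The WT group held 5 lean mice on control water. The Lep(ob/ob) group held 7 mice that lack leptin, the satiety hormone of adipose tissue, also on control water. The Lep(ob/ob) CCKRi group held 4 leptin-deficient mice given a cholecystokinin receptor inhibitor in drinking water for 6 weeks, 2 with proglumide at 0.1 mg/ml and 2 with lorglumide at 0.05 mg/ml. All treatments, control water included, began at 6 weeks of age. Final weight was 24.0 to 32.3 g in WT, 48.6 to 54.2 g in Lep(ob/ob) and 52.1 to 57.3 g in CCKRi mice. The labels divide the mice into 2 batches, here called A (3 WT, 4 Lep(ob/ob)) and B (2 WT, 3 Lep(ob/ob), 4 CCKRi), so every CCKRi mouse was in batch B. The sources differ on the origin of the WT mice. The labels have them bred in house and the study's methods have them purchased, as the Lep(ob/ob) mice were. If the labels hold, genotype and origin cannot be told apart.

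Mitochondrial ribosomes translate the few proteins encoded by mitochondrial DNA, all of them core subunits of the respiratory chain and ATP synthase. Their RNA is transcribed inside the organelle, whereas every one of their proteins is encoded in the nucleus, made in the cytosol and imported. Some of these proteins have a counterpart in the bacterial ribosome, and others are found only in mitochondria. Their promoters are known for binding sites of the ETS factor GABP, which many nuclear genes for mitochondrial proteins share.

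A promoter window, 250 bases before to 50 after the RefSeq start site (GRCm38.p6), was at hand for 68 of the 77 members. The ETS core CCGGAAG, searched on both strands, was present in 24 of the 68 windows (35.3%) and in 9.12% of the windows of all 27025 genes with one. In 14 of the 24 members a match began within 100 bases upstream of the start site. The E-box CACGTG (5 member windows, 7.35%, against 7.24%) and the CCAAT box (27, 39.7%, against 37.9%), searched in the same way, had shares close to those of all genes. Exact matches to a 10-base consensus of NRF1, searched on both strands, were in 3 member windows (4.41%, against 0.977%), and to one of YY1 in 5 (7.35%, against 0.899%). The windows of all genes were not limited to the 13660 genes tested here, and shares over those alone were not computed. These are letter matches, not measured binding, and a window without one says only that these letters are absent from it.

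The following upstream stretches are from 4 of the 12 members that were lower in Lep(ob/ob) than in WT pancreas in both batches (described later). They are those with at least 200 bases clear of every annotated exon, cut where an exon begins, and these 4 shared none of the motifs. Of the 12, Mrpl54 had no promoter window and was not searched. Mrpl21, Mrpl51, Mrps12, Mrps18a and Mrps21 had the ETS core in the full window. A CCAAT box was in those of Mrpl36, Mrpl37, Mrps12 and Mrps18a, and an E-box in those of Mrpl36 and Mrpl37. Matches to YY1 were in those of Mrpl37 and Mrps18a, in Mrps18a beyond the stretch shown. Capitals mark matches to the 5 motifs above, on either strand. Mrps18a lies at chr17:46110754-46110985 on the plus strand and holds a CCAAT box and, near its end, the ETS core, 26 bases before the start site. Mrps14 lies at chr1:160194965-160195214 on the plus strand, Mrpl24 at chr3:87919294-87919505 on the plus strand and Mrps24 at chr11:5707702-5707951 on the minus strand. The last 3 hold none of the motifs in the stretch shown.
Mrps18a: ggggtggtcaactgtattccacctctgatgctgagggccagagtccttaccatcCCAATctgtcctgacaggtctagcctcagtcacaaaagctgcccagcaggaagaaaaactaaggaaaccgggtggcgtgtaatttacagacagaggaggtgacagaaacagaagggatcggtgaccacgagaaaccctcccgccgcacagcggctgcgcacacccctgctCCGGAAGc
Mrps14: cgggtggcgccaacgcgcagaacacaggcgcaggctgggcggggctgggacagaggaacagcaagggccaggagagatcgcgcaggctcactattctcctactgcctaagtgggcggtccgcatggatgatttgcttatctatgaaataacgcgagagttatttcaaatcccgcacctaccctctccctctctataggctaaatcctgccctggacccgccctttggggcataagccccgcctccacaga
Mrpl24: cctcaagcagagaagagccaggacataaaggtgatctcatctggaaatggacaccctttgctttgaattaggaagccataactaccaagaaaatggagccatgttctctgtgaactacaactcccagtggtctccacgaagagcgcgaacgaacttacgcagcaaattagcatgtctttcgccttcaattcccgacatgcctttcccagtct
Mrps24: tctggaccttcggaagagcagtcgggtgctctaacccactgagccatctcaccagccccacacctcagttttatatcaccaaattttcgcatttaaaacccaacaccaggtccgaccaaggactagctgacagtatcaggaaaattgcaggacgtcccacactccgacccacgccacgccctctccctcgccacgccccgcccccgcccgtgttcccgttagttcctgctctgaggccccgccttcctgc

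The genotype effect of members with and without the ETS core is given without a test. The median log2 fold change between Lep(ob/ob) and WT was -0.36 over the 24 with it and -0.26 over the 44 without, and 3 and 5 of them, respectively, passed the test described later. The medians were -0.33 with and -0.24 without the CCAAT box (27 and 41 members), and -0.44 with and -0.26 without the E-box (5 and 63). For YY1 they were -0.14 with and -0.27 without (5 and 63), and for NRF1 -0.26 with and -0.27 without (3 and 65).

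The members took a small share of the reads in pancreas, where a few secreted enzymes fill the libraries, though their mean log2 CPM was above that of all tested genes in each of the 16 mice, by 0.06 to 0.84. Total counts per mouse ran from 9870673 to 34452570. The members together took 0.0507% to 0.160% of the counts, 9902 to 19233 reads per mouse, and a single member had 14 to 980 reads in a mouse. The 50 most counted genes took 49.3% to 85.0% of a library. Acinar markers identified the tissue, at a summed 252000 to 523000 CPM (counts of a gene scaled to a common library size) over the 11 genes. The adipocyte marker list stood apart in 4 libraries, those of Lep(ob/ob) mice 417, 461 and 463 and CCKRi mouse 69. The mean of its 8 genes was 5.62 to 7.26 log2 CPM in these and at most 4.88 in the other 12. Macrophage markers were also highest in these 4, at 4.35 to 5.93 against at most 3.81 log2 CPM. Calls and some fold changes between groups are given with and without these libraries, and the other results only with them. In bulk tissue, fewer cells of a type and less RNA per cell cannot be told apart.

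Per kilobase of annotated exon, averaged over the 16 mice, the members had a median level of 3.82 CPM. Mrps21, a small-subunit protein with a bacterial counterpart, was highest, at 26.2 ± 5.90 CPM per kb (SD over mice, n = 16). Mrpl53 (25.7 ± 14.8), Mrpl50 (15.8 ± 7.17), Mrps24 (14.6 ± 4.03) and Mrpl54 (14.0 ± 3.05 CPM per kb) followed. These SDs pool batches, and the order was not the same in each group and batch. In WT mice of batch A, Mrps21 was highest (27.9 ± 1.59, SD, n = 3), well above Mrps24, Mrpl54 and Mrpl53 (16.8 ± 0.387, 16.5 ± 1.04 and 16.4 ± 1.31), which lay within each other's spread, and Mrpl50 was at rank 13 (9.79 ± 1.77). In WT mice of batch B, Mrpl53 was highest (47.7 ± 7.69, n = 2), followed by Mrps21 (34.4 ± 0.143) and Mrpl50 (24.7 ± 1.47). In the CCKRi mice, all of batch B, Mrpl53 (38.8 ± 8.48, n = 4) was likewise above Mrps21 (29.1 ± 4.54). In Lep(ob/ob) mice Mrps21 was first in both batches, with 21.1 ± 3.95 against 13.0 ± 2.72 for Mrpl53 in batch A (n = 4) and 22.2 ± 6.20 against 20.1 ± 12.4 in batch B (n = 3). For Mrpl53, 87.97% of the exon bases are shared with the same-strand model Gm42688, so its reads cannot be assigned to it alone. The lowest levels were those of Mrpl23 (1.11 ± 0.274), Mrps25 (0.924 ± 0.246) and Mrps35 (0.839 ± 0.218 CPM per kb). Of the exon bases of Mrps25, 69.8% are shared with the opposite-strand gene Nr2c2. The order also depends on the gene model. Over the longest protein-coding transcript, Mrps21 remained first and Mrps25 was last of the 77, while Mrpl23 moved from rank 75 to rank 34.

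As a set, the members were lower in obese than in lean pancreas within each batch on the scaled log2 CPM. The difference was close to the spread between mice in batch A and larger than it in batch B. The set level, the mean log2 CPM of the 77 members, was 3.38, 3.16 and 3.23 in the WT mice of batch A and 3.59 and 3.53 in those of batch B. In Lep(ob/ob) mice it was 3.06, 3.22, 2.87 and 3.18 in batch A (mice 441, 472, 417 and 447). In batch B it was 3.12, 3.01 and 3.45 (mice 461, 463 and 464). The genotypes overlapped in batch A, where mice 472 and 447 exceeded WT mouse 5492, and did not overlap in batch B. In each batch the lowest Lep(ob/ob) levels (mouse 417, and mice 461 and 463) came from libraries with high adipocyte markers. The mean differences that follow include them. The mean difference was -0.17 in batch A (SD 0.160 in Lep(ob/ob), n = 4, and 0.112 in WT, n = 3). It was -0.37 in batch B (SD 0.231, n = 3, and 0.0446, n = 2). Over all 13660 genes, the same mean differed by 0.033 and 0.072 log2 units in the opposite direction. As a share of all counts, the members went the other way in batch A. They took 0.0538% in Lep(ob/ob) (SD 0.00186, n = 4) and 0.0509% in WT (SD 0.000473, n = 3). In batch B the shares were 0.0980% (SD 0.0243, n = 3) and 0.136% (SD 0.0345, n = 2). Such shares also depend on the reads of the 50 most counted genes. In batch A these took a mean 84.5% of WT and 81.9% of Lep(ob/ob) libraries.

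**Figure D1:**
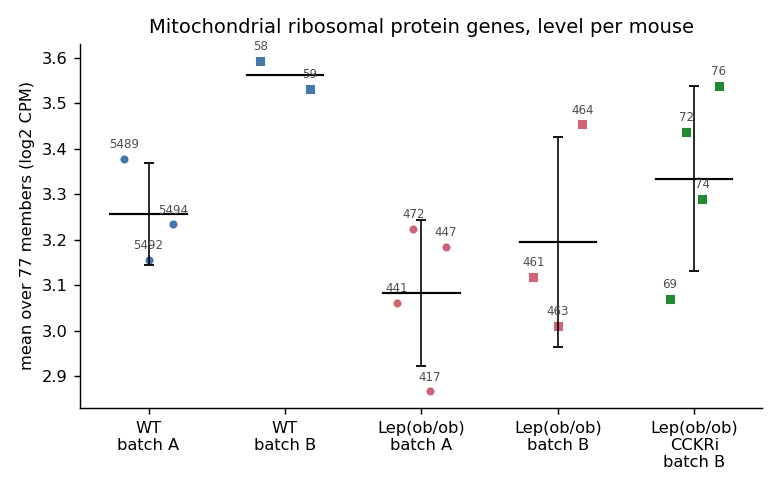
Mean log2 CPM over the 77 members in each mouse, by group and batch, with mouse numbers; horizontal lines are means and bars the SD where there are 3 or more mice. In batch B the Lep(ob/ob) mice (3.01 to 3.45) lie below both WT mice (3.53 and 3.59), and mouse 417 is the lowest of all at 2.87.

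The comparison of Lep(ob/ob) with WT asks how leptin deficiency and its obesity change the pancreas. In this comparison 8 of 77 members fell and none rose (edgeR quasi-likelihood test with batch in the model, Benjamini-Hochberg adjusted p under 0.05 over all 13660 genes). That is 10.4% of the members lower, beside 3.14% of all genes lower (429), and none higher beside 5.93% (810). In either direction 9.07% of all genes were called. The log2 fold change was below 0 for 67 of 77 members, with a median of -0.26 and a range from -0.73 to 0.63, and the median of all genes was -0.02. At an unadjusted p under 0.05, 26 of 77 members were lower and none higher, beside 1583 and 1662 of all 13660 genes. DESeq2 called 14 members lower, the 8 among them, and none higher, beside 12.4% of all genes called in either direction.

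**Figure D2:**
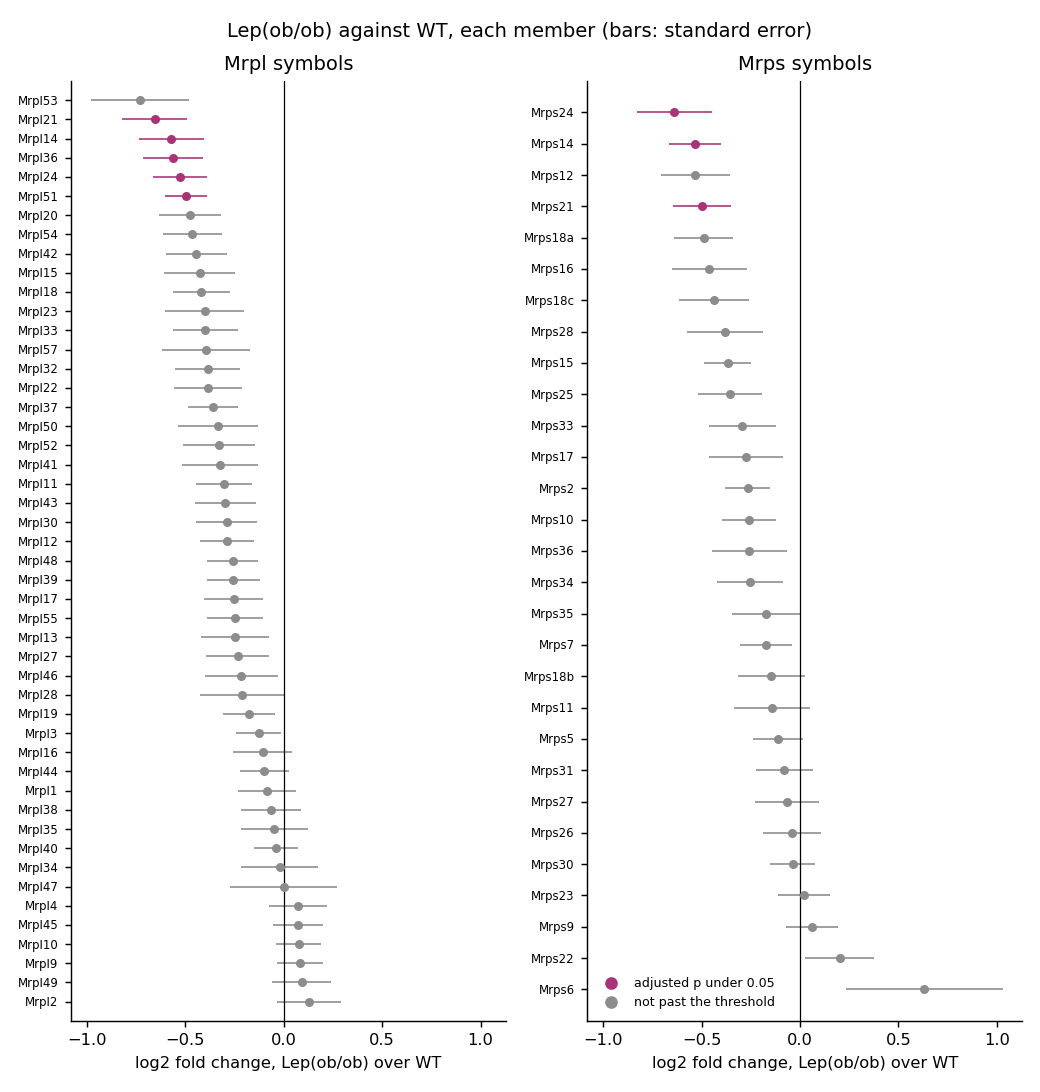
Log2 fold change of each of the 77 members between Lep(ob/ob) (n = 7) and WT (n = 5) with its standard error, ordered within Mrpl and Mrps symbols; purple points have an adjusted p under 0.05. Points lie left of 0 for 67 members, and the 8 purple ones run from -0.50 to -0.66.

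Among large-subunit proteins, Mrpl51, which is found only in mitochondria, had the smallest adjusted p. It had 19.7, 19.6 and 18.9 CPM in the WT mice of batch A and 21.6 and 22.9 CPM in those of batch B. In Lep(ob/ob) mice it had 14.2, 14.6, 11.3 and 13.7 CPM in batch A and 15.7, 14.7 and 18.6 CPM in batch B. All 7 obese mice were below all 5 lean mice, and mouse 464 came closest. Mrpl51 was 29.2% lower (log2 fold change -0.50, SE 0.11, adjusted p = 0.00715).

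Mrpl21, Mrpl24, Mrpl36 and Mrpl14 are large-subunit proteins with bacterial counterparts. Mrpl21 had 9.18, 6.75 and 8.96 CPM in WT mice of batch A and 10.8 and 10.5 CPM in batch B. In Lep(ob/ob) mice it had 6.26, 5.16, 4.79 and 5.63 CPM in batch A and 6.24, 4.55 and 8.62 CPM in batch B. The genotypes did not overlap within a batch, and the difference was the largest of the 8 (log2 fold change -0.66, SE 0.17, adjusted p = 0.0198).

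Mrpl24 had 24.4, 26.6 and 21.5 CPM in WT mice of batch A and 34.1 and 40.3 CPM in batch B, against 15.9 (lowest), 19.1 (median) and 30.3 CPM (highest) over the 7 Lep(ob/ob) mice. It was lower within each batch and overlapped between batches, since its level was higher in batch B (log2 fold change -0.53, SE 0.14, adjusted p = 0.0244). Of its exon bases, 26.3% are shared with the opposite-strand gene Rrnad1. Mrpl36, a very small protein of the large subunit, had 10.5, 10.8 and 9.92 CPM in WT mice of batch A and 11.7 and 10.3 CPM in batch B. In Lep(ob/ob) it ran from 5.90 to 8.71 CPM with a median of 7.09, below every WT mouse (log2 fold change -0.57, SE 0.15, adjusted p = 0.0271). Mrpl14, which lies at the interface with the small subunit, had 7.89, 8.02 and 7.83 CPM in WT mice of batch A. It had 13.7 and 15.4 CPM in those of batch B, and 4.45, 6.77 and 10.9 CPM as the lowest, median and highest in Lep(ob/ob). It was lower within each batch (log2 fold change -0.57, SE 0.17, adjusted p = 0.0401), and 11.2% of its exon bases are shared with the opposite-strand gene Tmem63b.

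The 3 small-subunit members that fell, Mrps14, Mrps21 and Mrps24, all have bacterial counterparts. Mrps14 had 19.6, 14.5 and 18.4 CPM in WT mice of batch A and 14.7 and 17.1 CPM in batch B. In Lep(ob/ob) mice it had 13.0, 14.0, 10.1 and 12.8 CPM in batch A and 11.3, 8.79 and 11.6 CPM in batch B. All obese mice were below all lean mice (log2 fold change -0.53, SE 0.13, adjusted p = 0.0159). Mrps24 had 24.7, 24.0, 25.1, 25.7 and 34.1 CPM in the 5 WT mice, against 9.57, 17.4 and 23.3 CPM as lowest, median and highest in Lep(ob/ob). It did not overlap between genotypes either (log2 fold change -0.64, SE 0.19, adjusted p = 0.0447), though 15.4% of its exon bases are shared with the same-strand gene Urgcp. Mrps21 had 21.9, 20.2 and 19.7 CPM in WT mice of batch A and 25.5 and 25.4 CPM in batch B. Its 11.9, 16.1 and 21.1 CPM in Lep(ob/ob) were lower within each batch (log2 fold change -0.50, SE 0.15, adjusted p = 0.0412).

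**Figure D3:**
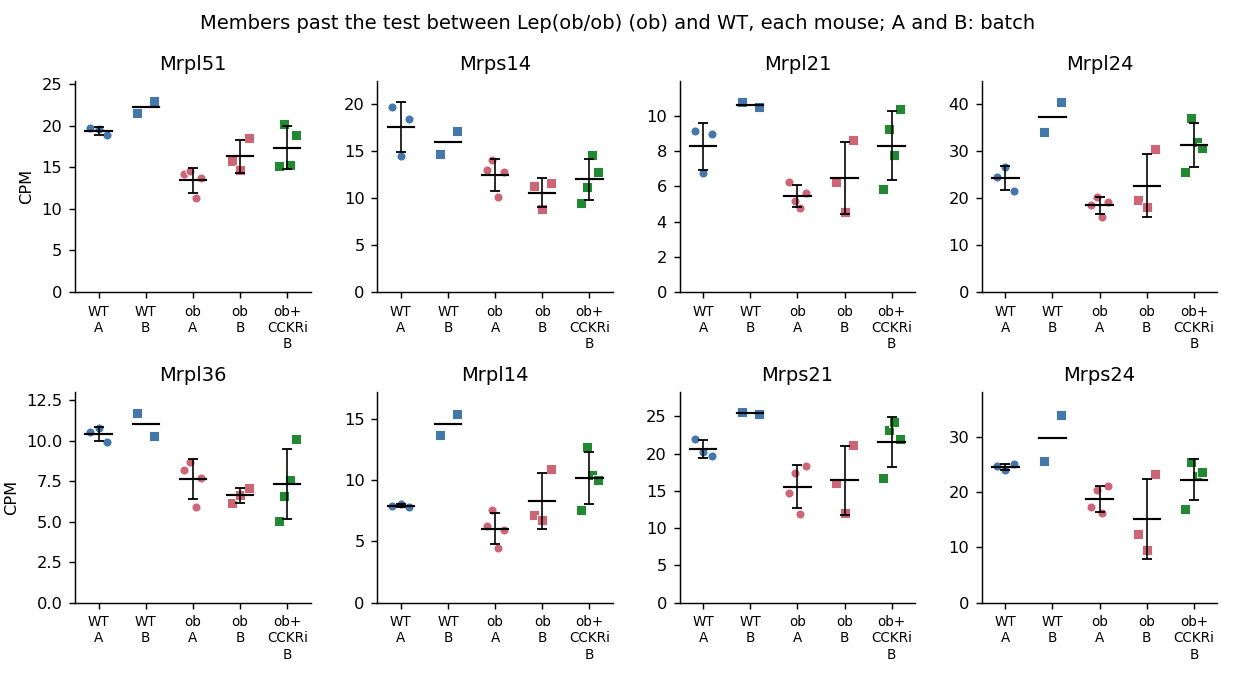
CPM of the 8 members past the test in each mouse, by group and batch (A or B); circles are batch A, squares batch B, lines the mean and bars the SD where there are 3 or more mice. Within each batch, every Lep(ob/ob) mouse lies below every WT mouse for all 8.

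Several members lay near the threshold. Mrps18a was just outside (log2 fold change -0.49, SE 0.15, adjusted p = 0.0507). Mrpl53, with the lowest fold change of all, did not pass (log2 fold change -0.73, SE 0.25, adjusted p = 0.0788). It had 14.1, 12.2 and 12.4 CPM in WT mice of batch A and 33.4 and 42.0 CPM in those of batch B, and 7.47, 10.3 and 27.1 CPM as lowest, median and highest in Lep(ob/ob). At the other end, Mrps6 was the member with the highest fold change and did not pass either (log2 fold change 0.63, SE 0.40, adjusted p = 0.360). Its level was 1.14 to 2.37 CPM in WT and 0.995 to 10.6 CPM in Lep(ob/ob), where mouse 463, the library with the most adipocyte marker RNA, was the highest. For Mrps6, 19.9% of exon bases are shared with same-strand genes, Slc5a3 among them.

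Of the 8 members that fell, 7 are proteins shared with bacteria. That class was also the larger in each subunit, with 30 against 20 and 16 against 10 members. Of all genes, 3.14% were called lower. Of the 30 large-subunit proteins shared with bacteria, 4 fell (median log2 fold change -0.25). Of the 20 large-subunit proteins specific to mitochondria, 1 fell (median -0.31). In the small subunit, 3 of the 16 shared with bacteria fell (median -0.32), and none of the 10 specific to mitochondria did (median -0.11). In the same order, the medians were -0.15, -0.11, -0.17 and 0.06 in batch A alone and -0.37, -0.41, -0.43 and -0.29 in batch B alone. No test compared these groups. Mrps36 was placed in none of them, since it is now known as a component of the 2-oxoglutarate dehydrogenase complex.

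Each batch alone gave the same direction for most members. In batch A (4 against 3 mice) 1 member, Mrpl51, passed the test (8.68% of all genes were called there, 1.93% lower and 6.75% higher), and the median log2 fold change was -0.12. In batch B (3 against 2 mice) none passed in the edgeR test, beside 0.0597% of all genes (0.0224% lower, 0.0373% higher). The members' median there was -0.38. At an unadjusted p under 0.05, 14 members were lower and 1 higher in batch B, beside 727 and 1160 of 13312 genes. The 2 batches share no mouse. The fold change was below 0 in both for 52 members, above 0 in both for 6, and of opposite sign for the other 19, with a Pearson correlation across the 77 genes of 0.401 (Spearman 0.461), genes not being independent replicates. The interaction of genotype with batch was past the threshold for no member in edgeR, and for 0% of all 14221 genes tested. Its unadjusted p was under 0.05 for 3 members, Mrpl57, Mrpl1 and Mrps18c, beside 1613 of 13630 genes. Without Lep(ob/ob) mouse 464, whose set level was the highest of its group, the interaction was called for 9 members and 1228 genes. The share of all genes called in that fit is not given here. The Lep(ob/ob) mice of batch B left in it, 461 and 463, both had high adipocyte markers (5.62 and 7.26 log2 CPM). Among those of batch A only mouse 417 did (5.71 log2 CPM). The part of these markers in the interaction calls was not tested.

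**Figure D4:**
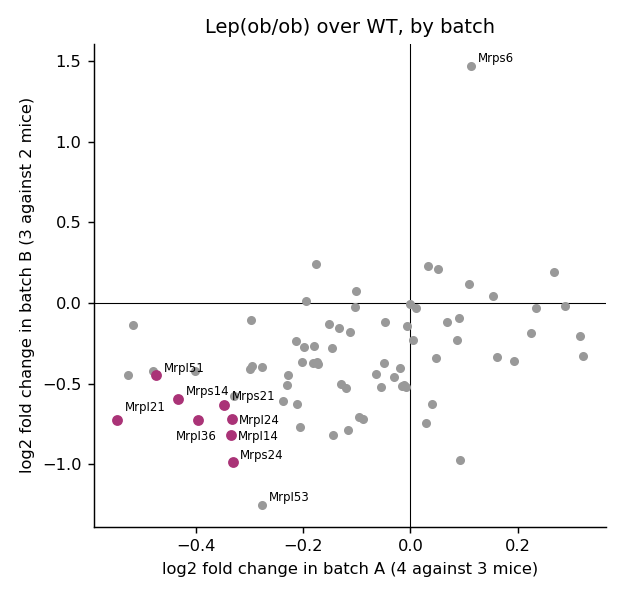
Log2 fold change of each member between Lep(ob/ob) and WT in batch A (horizontal) and in batch B (vertical), fitted separately; purple points are the 8 members past the test in the model of both batches. The lower left quadrant holds 52 of the 77 members, and the vertical axis spans a wider range, from -1.25 (Mrpl53) to 1.47 (Mrps6).

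Members whose levels did not overlap between genotypes were counted as a plain description of the mice. In batch A all Lep(ob/ob) mice were below all WT mice for 16 members (20.8%, beside 10.3% of all genes), and above for none (10.7% of all genes). In batch B they were below for 36 members (46.8%, beside 15.7%) and above for 2, Mrpl9 and Mrps6 (2.6%, beside 17.2%). In both batches they were below for 12 members (15.6%, beside 3.7% of all genes) and above for none (4.97%). The 12 were the 8 that passed the test and Mrpl37, Mrpl54, Mrps12 and Mrps18a. Mrps12, the mitochondrial counterpart of a protein of the bacterial decoding centre, had a log2 fold change of -0.53 (SE 0.17, adjusted p = 0.0661).

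The size of the result rested on which libraries were included. Shares of all genes in this paragraph count calls in both directions, and those called lower alone are not given. Without the 4 libraries with high adipocyte markers, 3 of 77 members passed, Mrpl51, Mrps14 and Mrpl21 (log2 fold changes -0.38, -0.40 and -0.46). That is a smaller share than the 12.3% of all genes called in that fit, which was more than the 9.07% with all mice. Without these libraries 52 of 77 members were below 0, and the median moved from -0.26 to -0.07. Within their group and batch, mice 417, 463 and 69 had the lowest set levels, and mouse 461 the next lowest after 463. The adipocyte markers, all 8 of them detected in every group, summed to 94.5 to 343 CPM in WT, 144 to 5510 CPM in Lep(ob/ob) and 454 to 4900 CPM in CCKRi mice. The list was not uniform between Lep(ob/ob) and WT. Its median log2 fold change was 1.503 with none called higher, while Cfd was called lower (-3.15) and Retn had -0.10. The part of these markers in the lower member levels was not tested. With the adipocyte marker mean as a covariate, 12 members were called, all lower, with all 8 among them, beside 14.0% of all genes. Beta cell markers also moved with genotype, with 5 of 9 called higher in Lep(ob/ob) and a median log2 fold change of 1.65. With their mean as a covariate, 42 members were called, 41 of them lower, beside 29.4% of all genes. Of the 11 acinar markers 2 were called lower, Amy2a5 and Ptf1a. With the acinar mean as a covariate 4 of 77 members were called, all lower, a smaller share than the 9.40% of all genes. Leaving out one mouse at a time also moved the count. It was 2 without WT mice 5489, 58 or 59, 3 without WT mouse 5492 or Lep(ob/ob) mouse 417, 4 without WT mouse 5494 or Lep(ob/ob) mice 461 or 463, and 5 without Lep(ob/ob) mouse 441, where 6.14% to 8.41% of all genes were called. At 4 or fewer of 77, the members' share was below each of these shares of all genes. The count was also 8 without Lep(ob/ob) mice 472 or 447, and was 12 without Lep(ob/ob) mouse 464, beside 10.3% of all genes. Each call in these fits without 1 mouse was lower in Lep(ob/ob). Over all 25 alternative fits, Mrpl51 lost its call in 1, Mrps14 in 4, Mrpl21 in 6, Mrpl24 in 8 and Mrpl36 in 11. Mrps21 lost it in 16, Mrpl14 in 17 and Mrps24 in 18, so that these 3 were not called in most fits.

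**Figure D5:**
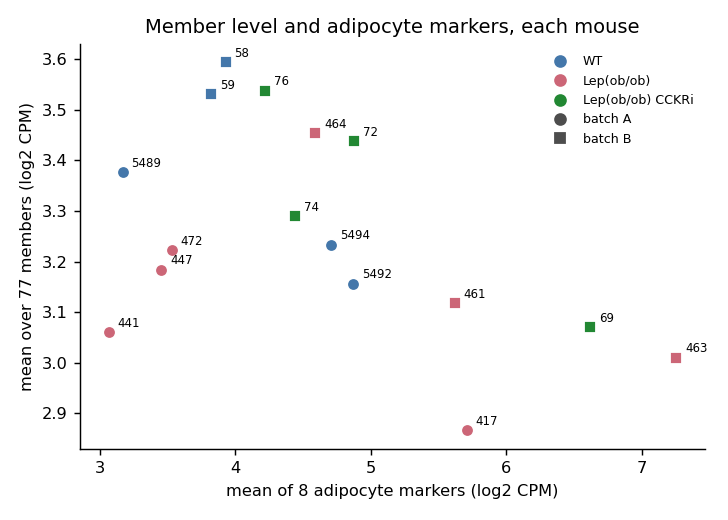
Set level of the 77 members (vertical) against the mean of 8 adipocyte markers (horizontal), both in log2 CPM, for each of the 16 mice, with group by colour and batch by symbol. The 4 mice to the right (417, 461, 463 and 69, at 5.62 to 7.26) have set levels of 2.87 to 3.12.

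Few other genes of mitochondrial translation were called between Lep(ob/ob) and WT. Of 20 tested genes for assembly of the mitochondrial ribosome and modification of its RNA, 2 fell, beside the 3.14% of all genes called lower. Mtg2, a GTPase of large-subunit assembly, had a log2 fold change of -0.64 (SE 0.13, adjusted p = 0.00450). Fastkd2, an RNA-binding protein needed for the large subunit's RNA, had -0.70 (SE 0.17, adjusted p = 0.0141). Fold changes of this list had a median of -0.20, with 18 of 20 below 0, but the batches differed in sign. In batch A alone the median was 0.07 with 12 of 20 above 0, and in batch B alone it was -0.40 with 16 of 20 below 0. None of the 13 translation factors was called (edgeR, 6 lower at an unadjusted p under 0.05, median -0.24), nor any of the 17 mitochondrial aminoacyl-tRNA synthetases (6 lower and 1 higher unadjusted, median -0.31). The 6 ribosome proteins under other symbols, the 8 genes of mitochondrial DNA transcription and replication and the 9 regulators of mitochondrial biogenesis also gave no call, with 2, 1 and 2 genes lower at an unadjusted p under 0.05. Over all 13660 genes, 1583 were lower and 1662 higher at that unadjusted threshold. Among the regulators, Ppargc1a, a coactivator of mitochondrial biogenesis, had a log2 fold change of -0.61 (SE 0.23, adjusted p = 0.121). No gene encoded by mitochondrial DNA was among the rows analysed here. For reference, the median was -0.36 over 77 cytosolic ribosomal protein genes (1 called higher, none lower) and -0.34 over 78 nuclear genes of oxidative phosphorylation (7 called lower).

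The comparison of CCKRi with Lep(ob/ob) mice asks what blocking cholecystokinin receptors changes in the obese pancreas. No member was called in either direction by edgeR or by DESeq2, where edgeR called 0.0586% of all genes, 0.0293% higher and 0.0293% lower (4 each). At an unadjusted p under 0.05, 6 of 77 members were higher and 1 lower, beside 1030 and 921 of all 13660 genes. The median log2 fold change was 0.07, with 48 of 77 members above 0, beside -0.01 over all genes. Batch B, which holds every CCKRi mouse, also gave no call of a member when fitted alone in edgeR (median 0.11), beside 0.0074% of all genes called, and 0.0074% lower. In that fit 3 members were higher and none lower at an unadjusted p under 0.05, beside 917 and 754 of 13451 genes. In that batch the set level was 3.07 and 3.44 in the proglumide mice (69 and 72) and 3.29 and 3.54 in the lorglumide mice (74 and 76). These overlapped the 3.01 to 3.45 of Lep(ob/ob) mice, and the mean difference of 0.14 was smaller than the SD within either group (0.203, n = 4, and 0.231, n = 3). As a share of all counts the groups did not overlap. The members took 0.1245% to 0.1603% in CCKRi and 0.0701% to 0.114% in Lep(ob/ob) mice of that batch. Such a share also depends on the reads of the 50 most counted genes. These took 49.3% to 70.9% of the CCKRi and 60.3% to 77.1% of these Lep(ob/ob) libraries. How many other genes had shares without overlap was not computed. On the scaled log2 CPM, 0 of 77 members had all CCKRi mice above, beside 4.92% of all genes.

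The member with the smallest p was Mrpl45, a large-subunit protein that contacts the inner mitochondrial membrane. It had 5.21, 4.49, 3.71 and 5.87 CPM in CCKRi mice 69, 72, 74 and 76, and 7.90, 6.19 and 6.39 CPM in the Lep(ob/ob) mice of the same batch. All 4 treated mice were below the 3 untreated ones, the only member with that pattern (1.3%, beside 3.57% of all genes), and none had all treated mice above (4.92% of all genes). Its log2 fold change was -0.51 (SE 0.16, adjusted p = 0.249).

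Next by p came Mrpl33, Mrps33, Mrpl32 and Mrps25, with log2 fold changes of 0.57, 0.52, 0.48 and 0.46 and adjusted p of 0.276 to 0.317, Mrps25 being the one that shares most of its exon bases with Nr2c2. Mrpl33 had 15.5, 18.1, 17.7 and 12.5 CPM in the CCKRi mice and 7.52, 8.56 and 13.2 CPM in Lep(ob/ob) mice 461, 463 and 464. Mouse 464 overlapped the treated mice, whereas 461 and 463, both with high adipocyte markers, were below them. Mrpl32, whose maturation needs a protease of the inner membrane, had 11.9, 15.6, 17.6 and 15.8 CPM against 8.65, 8.29 and 14.8 CPM, with the same arrangement. Without the 4 libraries with high adipocyte markers, the log2 fold changes of Mrpl33 and Mrpl32 were 0.22 and 0.21, and the median over members was -0.02. The mice on the 2 inhibitors are given side by side only, since their doses differed: with either pair alone, no member was called, and the median was -0.01 with proglumide and 0.19 with lorglumide. Mouse 69, with high adipocyte markers and the lowest set level of the 4, is one of the proglumide mice.

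CCKRi mice were also set against all 5 WT mice, in the same model of all 16 mice with batch. This comparison shares its WT and CCKRi mice with those above. No member was called by edgeR or DESeq2, beside 5.57% of all genes called, 4.22% higher (576) and 1.35% lower (185). At an unadjusted p under 0.05, 7 of 77 members were lower and none higher, beside 995 and 1282 of all 13660 genes. The median log2 fold change was -0.17, with 62 of 77 members below 0, and -0.02 over all genes. The smallest p-values were those of Mrps15, Mrpl51, Mrpl45, Mrpl54 and Mrpl36, with log2 fold changes of -0.45, -0.39, -0.44, -0.49 and -0.50 and adjusted p of 0.121 to 0.190. Mrpl51, the member with the smallest p between Lep(ob/ob) and WT, had 15.2, 20.3, 15.3 and 18.9 CPM in CCKRi mice 69, 72, 74 and 76. These lay below both WT mice of batch B (21.6 and 22.9 CPM) and around the Lep(ob/ob) mice (14.7 to 18.6 CPM). In batch B the mean set level of CCKRi mice was 0.23 below that of WT mice. As a share of all counts the direction turned, with 0.148% in CCKRi (SD 0.0159, n = 4) and 0.136% in WT mice (SD 0.0345, n = 2). The 50 most counted genes took a mean 60.45% of the CCKRi and 69.7% of these WT libraries. Without the 4 libraries with high adipocyte markers, 1 member, Mrpl54, was called lower (log2 fold change -0.49, adjusted p = 0.0280), and without CCKRi mouse 76 it was 1, Mrpl36. The shares of all genes called in these fits are not given here. With the beta cell marker mean as a covariate, 14 members were called, 13 of them lower, beside 10.5% of all genes.

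More members passed the test between batches than in any comparison of groups, but at a share close to that of all genes. In the same model, 23 members were higher and 3 lower in batch B than in batch A, together 33.8%, beside 35.7% of all genes. The members differed from all genes in direction. Called lower were 3.9% of members and 17.7% of all genes, and 18.1% of all genes were called higher. Acinar, beta cell and endothelial markers were called more often than the 35.7% of all genes. In batch B, 8 of 11 acinar markers were called lower (72.7%, median log2 difference -1.14) and 4 of 9 beta cell markers lower (44.4%, -0.84). So were 2 of 5 endothelial markers (40%, -0.07). Called less often than all genes were macrophage markers (2 of 7 higher, 28.6%, 0.98) and adipocyte markers (1 of 8 higher, 12.5%, 0.94). The same held for fibroblast and stellate markers (1 of 6 higher, 16.7%, 0.09). The duct, lymphocyte and alpha, delta and PP cell lists gave no call. The part of these markers in the members' batch difference was not tested. Mrpl32 differed most, with 4.21 to 6.18 CPM in WT mice of batch A and 13.5 and 16.6 CPM in batch B (log2 difference 1.42, SE 0.16). It was followed upward by Mrps6 (1.25), Mrpl33 (1.06), Mrps33 (1.02) and Mrpl53 (1.02). Lower in batch B were Mrpl38 (-0.73), Mrpl4 (-0.63) and Mrpl37 (-0.44), the first and last specific to mitochondria. The batch difference of the members did not follow the length of their coding transcript (Pearson 0.028, Spearman 0.0136 across 77 genes). Pooling batches without the batch term left 4 of the 8 members called between Lep(ob/ob) and WT. The share of all genes called in that fit is not given here.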

How the data were processed

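RNA-seq of whole pancreas was analysed from the deposited table of raw read counts per gene, which the authors made from poly(A)-selected, dUTP-stranded paired-end libraries. The submitters' processing notes name Trim Galore 0.6.7, cutadapt 3.5, STAR 2.7.9, DESeq2 and mm10. The counting tool, its strand setting and the annotation are not given in the sources used here, so reads of overlapping genes may have been split in an unknown way. The deposited normalized table holds the same counts times 1 factor per mouse and was not used.

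Genes were filtered with filterByExpr (13660 of 24411 kept), scaled by TMM and tested with the edgeR 4.0.16 quasi-likelihood test (R 4.3.3, limma 3.58.1) in one model of 3 groups and batch over all 16 mice, with Benjamini-Hochberg adjustment over all genes and a threshold of 0.05. CPM are TMM-scaled (summed marker CPM are per total counts), log2 CPM used a prior count of 2, and the SE is that implied by the F statistic. DESeq2 1.42.0 was an alternative. Both tests were also run on simulated data, the outcome of which is not given here and supports no result above. Other alternatives changed the scaling, the filter, the batch term, the mice included and marker scores as covariates. Depth was 9870673 to 34452570 counts per mouse. Each library came from 1 mouse, and no 2 libraries of a group agreed within sampling noise. PCR reads without molecular identifiers are not independent molecules.

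Members were all genes matching the symbol pattern. For each comparison the text names up to 10 largest rises and falls among called members, the 5 smallest p where under 5 were called, and the 5 highest and 3 lowest per length. Other members are named for a count of 5 or fewer or for an extreme value, and were chosen after their values were seen. The members and lists were chosen with earlier results of these data known. Exon models were GENCODE M21 (GRCm38), found for all 77 members, and promoters were RefSeq's.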

Additional observations from a re-analysis of the deposited data

Results flagged for a closer look

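The set level and the 15 members named for a comparison were examined in each of the 3 groups for a mouse far from the others, 48 sets of values in all, with batches A and B pooled within a group. In 3 of them the gap of the extreme mouse to its nearest neighbour, as a share of the group's range on the log2 CPM scale, exceeded Dixon's limit, and chance alone flags about 1 in 20. Mrps24 was high in WT mouse 59 (34.1 CPM, against 24.0 to 25.7 CPM in the other 4), with a share of 0.805. Mrps15 was low in Lep(ob/ob) mouse 417 (7.32 CPM, against 9.32 to 10.4 CPM in the other 6), with a share of 0.687. Mrpl24 was high in Lep(ob/ob) mouse 464 (30.3 CPM, against 15.9 to 20.1 CPM in the others), with a share of 0.636. Mrpl24 was also 1.35-fold higher in batch B, which holds mouse 464, than in batch A.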

How the results depend on the processing

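Between Lep(ob/ob) and WT, 8 members were called lower. The count was 5 when scaling ignored the 50 genes with most reads, 4 without the batch term, 14 with DESeq2, 4 with the acinar and 42 (41 lower) with the beta cell marker mean as a covariate, 3 without the 4 libraries with high adipocyte markers (chosen after seeing the data), 1 in batch A alone, 0 in batch B alone and 0 when a log2 fold change of 1 or more in size was also required. Leaving out 1 mouse gave 2 to 12. RLE scaling, other filters, the adipocyte covariate and a fit of the 2 groups alone gave 6 to 12. Each of the 8 members kept its direction in all 25 alternative fits. Of the 200 pairs of member and fit, 81 were without a call. Between CCKRi and Lep(ob/ob), where none was called, 1 was called without the batch term (Mrpl45) and 1 with the adipocyte covariate. Between CCKRi and WT it was 14 with the beta cell covariate and 1 without the 4 libraries, and leaving out 1 mouse gave 0 to 1. For the interaction, leaving out 1 mouse gave 0 to 9. Where this report gives no share of all genes called in a fit, the count of members in it is not set against a background. The median level per kilobase was 5.02 CPM over the longest transcript and 6.38 CPM over the longest protein-coding one. No paired analysis was possible because mouse numbers are not shared between groups. At 14 reads for the lowest member in a mouse, small differences of low members are not detectable.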

Other observations

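In CCKRi against Lep(ob/ob) pancreas, genes around the mitochondrial ribosome gave no call, with adjusted p of 0.222 or more. The smallest p-values were those of Tars2, the mitochondrial threonyl-tRNA synthetase (log2 fold change 0.57, SE 0.15, adjusted p = 0.222), Ppargc1a (1.07, SE 0.28, adjusted p = 0.222) and Mtif2, the mitochondrial initiation factor that brings the first tRNA (0.50, SE 0.14, adjusted p = 0.236). Tufm, the mitochondrial elongation factor, had -0.49 (SE 0.19, adjusted p = 0.2999). Ppargc1a thus had values of opposite sign in the comparisons of Lep(ob/ob) with WT and of CCKRi with Lep(ob/ob), which share the Lep(ob/ob) mice.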
